A study of Mus musculus with 16 samples.

Results

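The mouse colon handles sodium, chloride and bicarbonate with a small set of membrane transporters, and 10 of their genes were followed here in sorted epithelial cells: Slc9a2, Slc9a3, Slc9a3r1, Slc26a2, Slc26a3, Slc26a6, Slc4a4, Slc12a2, Scnn1a and Atp12a. They were listed by name, with earlier results of these data known, and account for 10 of the 45513 genes counted in the deposited files. All 10 had a row in every file and enough reads to be tested. The data were RNA-sequencing read counts per gene from 16 colon libraries of 8 mice. From each mouse, EpCAM+ epithelial cells carrying the tdTom label (tdTom+) and those without it (tdTom-) were collected separately, so each group held 8 libraries and each mouse gave one of each. The design asks how cells of the Atoh1-driven secretory lineage differ from the remaining epithelium.

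Both groups came from the same animals. All carried Atoh1(WT)CreERT2, an allele in which the inducible recombinase CreERT2 is made wherever the transcription factor Atoh1 is expressed, on both chromosomes, together with the Rosa26 tdTomato (tdTom) reporter on one chromosome, on a C57BL/6 background and at 8 to 16 weeks of age. Tamoxifen was given at 1 mg per day on 3 days, per the labels and the study's methods on animal treatment for this comparison, while its methods on RNA sequencing give another dose and schedule. Every animal received it, and no library without tamoxifen was analysed here. The tdTom+ cells are labeled cells that made Atoh1 during labeling and what arose from them since. The tdTom- cells are all other EpCAM+ cells, of several types, with any Atoh1-expressing cells that stayed unlabeled. Cells came from pooled crypt-enriched fractions after the first fraction was discarded. Each library is a bulk sample, so fewer cells of a type and less RNA per cell cannot be told apart.

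As background, surface colonocytes absorb salt by coupling a Na+/H+ exchanger (NHE2, encoded by Slc9a2, or NHE3, encoded by Slc9a3) to a Cl-/HCO3- exchanger such as DRA (Slc26a3) in the apical membrane. A second route is the epithelial sodium channel ENaC, whose alpha subunit is Scnn1a, and potassium is recovered by the non-gastric H+,K+-ATPase (Atp12a). Secreting cells take up chloride across the basolateral membrane through NKCC1 (Slc12a2) and bicarbonate through NBCe1 (Slc4a4), and release them apically through channels. Goblet cells, which release mucin, also depend on bicarbonate for mucus to unfold.

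Promoter sequence is shown for the 2 genes with the largest decrease in tdTom+ cells and for the one whose change did not pass the test, so that the letters upstream of each can be set beside the values that follow. RefSeq promoter entries on GRCm38.p6 matched 5 of the 10 genes (Slc9a3, Slc9a3r1, Slc26a3, Slc26a6 and Slc4a4). Each run is the 250 bases before the annotated start, 5′ to 3′ on the plus strand, with motif matches on either strand in capitals.
Slc9a3, chr13:74121163-74121412: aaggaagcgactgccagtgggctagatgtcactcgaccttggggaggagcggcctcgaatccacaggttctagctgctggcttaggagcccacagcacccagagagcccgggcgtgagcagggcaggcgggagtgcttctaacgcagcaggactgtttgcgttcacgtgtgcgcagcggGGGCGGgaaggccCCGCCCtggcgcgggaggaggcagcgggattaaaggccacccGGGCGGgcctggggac
Slc26a3, chr12:31437969-31438218: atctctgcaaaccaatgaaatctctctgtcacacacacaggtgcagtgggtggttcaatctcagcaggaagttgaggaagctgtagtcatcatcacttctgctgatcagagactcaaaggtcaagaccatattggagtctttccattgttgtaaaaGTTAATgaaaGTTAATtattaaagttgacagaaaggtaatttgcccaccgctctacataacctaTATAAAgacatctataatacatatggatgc
Slc26a6, chr9:108853793-108854042: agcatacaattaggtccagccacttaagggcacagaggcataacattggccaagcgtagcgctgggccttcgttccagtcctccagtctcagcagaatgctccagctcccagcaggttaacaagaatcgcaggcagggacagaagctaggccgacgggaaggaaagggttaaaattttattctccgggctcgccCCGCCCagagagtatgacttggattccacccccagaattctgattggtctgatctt

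The motifs searched included the E-box form CAGCTG, which bHLH factors such as Atoh1 can bind. The others were the GC box GGGCGG, the TATA box TATAAA, the CDX core TTTATG and the HNF1 half-site GTTAAT. Each was searched on both strands, with no overlap between matches of different motifs in the runs shown. The capitals in the Slc9a3 run mark 3 GC boxes. Those in the Slc26a3 run mark 2 HNF1 half-sites and 1 TATA box, and those in the Slc26a6 run mark 1 GC box. Of 32851 promoter windows of this length, 32.7% held the GC box, 12.4% the TATA box and 6.43% the HNF1 half-site. The E-box form CAGCTG, found in 13.0% of windows, and the CDX core, found in 10.8%, were in none of the 5 genes' windows. This says only that these letters are not there, and other E-box forms were not searched. The G and C content was 67.6% for Slc9a3, 38.8% for Slc26a3 and 53.2% for Slc26a6. The Slc26a3 and Slc26a6 windows lie inside the gene spans used for counting, which begin further upstream. These matches are descriptions of the letters and not sites at which binding was measured.

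Expression is given as CPM, the reads of a gene scaled to a common library total, with library sizes scaled by edgeR's TMM method, and groups were compared with edgeR's quasi-likelihood test at a Benjamini-Hochberg adjusted p under 0.01 over the 15841 genes with enough reads. In tdTom+ cells, 7 of the 10 genes were lower, 2 were higher (Slc12a2 and Scnn1a) and 1 (Slc26a6) did not pass. The words higher and lower are used for genes past this threshold. This fit had no term for the mouse, and SE and adjusted p are from it unless stated. With the mouse as a term, 7 of the 10 genes were again lower and 2 higher. The SE was then smaller in each of the 10 genes, for Slc9a3 0.099 in place of 0.25. The background is wide: 51.0% of all genes tested passed in one direction or the other, 25.5% lower and 25.5% higher. The median log2 fold change of the 10 genes was -1.75, beside 0.0039 over all genes tested. The 10 genes were chosen with earlier results of these data known, so neither their counts nor this median is read as particular to them. In the 9 genes that passed, the libraries of both groups did not overlap and the direction was the same in 8 of 8 mice. How many of all genes tested were separate in this way was not counted, so separation is not read as particular to these 9.

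**Figure D1:**
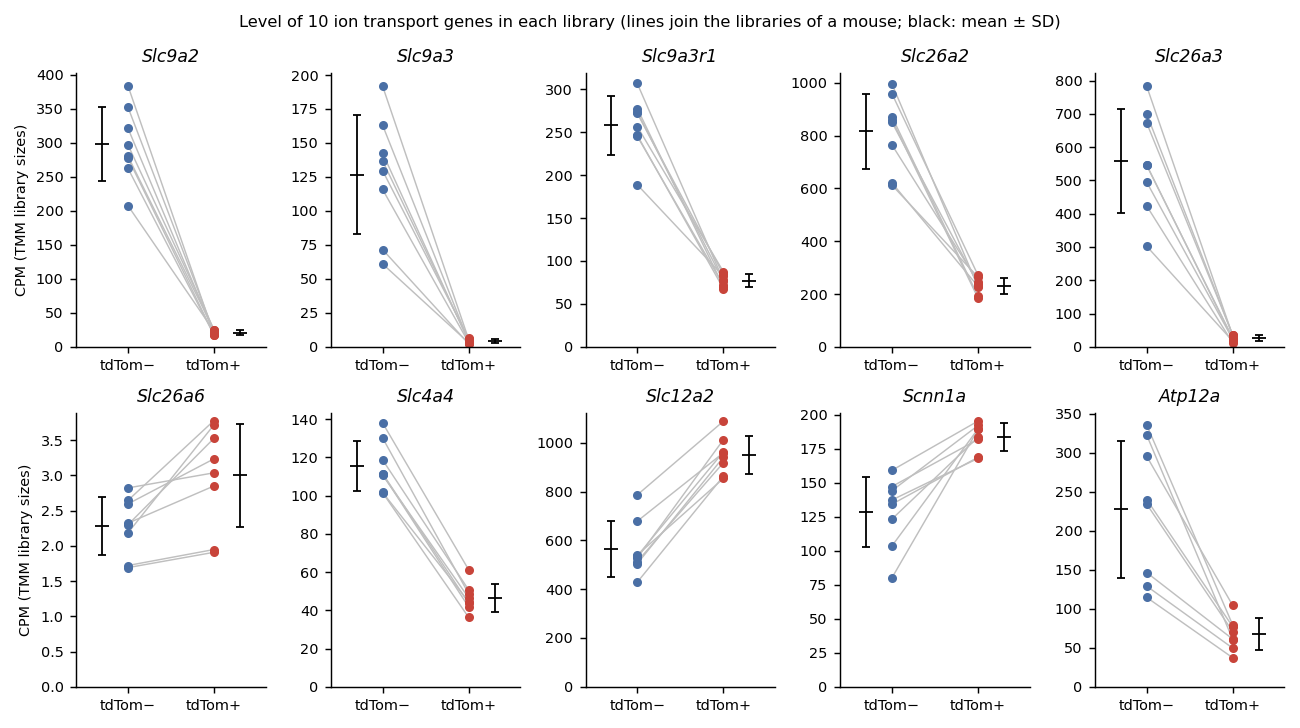
Level of each of the 10 genes in CPM (vertical axis, linear from 0) in the tdTom- (blue) and tdTom+ (red) library of each of 8 mice, with gray lines joining the libraries of a mouse and black marks giving the mean ± SD. The 2 groups are apart in every panel except Slc26a6, where tdTom- libraries lie between 1.69 and 2.82 CPM and tdTom+ libraries between 1.91 and 3.78 CPM.

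Library totals ran from 16482530 to 24218367 reads in tdTom+ cells and from 18318172 to 45791503 in tdTom- cells, and 3 reads, taken as the floor, corresponded to at most 0.194 CPM. This floor covers counting error only. Marker genes were read beside the transporters. Their lists were chosen with earlier results of these data known, so a shared direction within a list is no independent check of the sort. All 10 absorptive markers (Alpi, Krt20, Car1, Car4, Aqp8, Ceacam20, Cyp2c55, Saa1, Lypd8 and Mall) were lower in tdTom+ cells, with log2 fold changes from -5.18 to -2.37 and summed levels of 1795 to 2696 CPM against 13450 to 25877 CPM in tdTom- cells. All 10 goblet markers were higher, with a median of 4.03 and sums of 51617 to 110939 CPM against 2314 to 9083 CPM. They were Muc2, Tff3, Fcgbp, Clca1, Spdef, Zg16, Agr2, Spink4, Atoh1 and Ang4. The tdTom- group thus held goblet transcripts too, and their source was not tested. Atoh1 drives the label by which the cells were sorted, so its direction was built into the design. Enteroendocrine markers were lower, 10 of 10, at 329 to 830 CPM against 1445 to 4232 CPM, so the tdTom- group held endocrine transcripts as well. Of 9 tested tuft markers 6 were lower, and of 9 stem and cycling markers 7 were lower. With the mouse as a term of the model these became 7 and 9, since Avil, Mki67 and Top2a also passed. Of 8 immune markers 4 could be tested and 2 of them were lower, with sums of 7.09 to 13.4 CPM against 11.4 to 36.5 CPM, and with the mouse term Lyz2 passed too, making 3. Stromal markers, 3 of 8 tested and 2 of them lower, summed to 7.89 to 15.5 CPM against 12.0 to 23.8 CPM, with Dcn at 3 reads or fewer in all. The share of mitochondrial reads was lower in the tdTom+ library in 8 of 8 mice, at 2.23% to 6.92% against 3.74% to 9.97% in tdTom- libraries. The marker lists and this share moved together with the transporters between the same libraries, and their part in the transporter results was not tested.

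The apical Na+/H+ exchangers were among the genes with the largest decrease. Slc9a3 (ENSMUSG00000036123, chromosome 13 from 74121515 to 74166064, plus strand, GRCm38), the main exchanger of absorptive cells, was at 61.0, 133 and 192 CPM (lowest, median and highest of 8) in tdTom- cells and at 2.20, 3.92 and 6.15 CPM in tdTom+ cells. The highest tdTom+ library was thus far below the lowest tdTom- library. The means were 127 ± 43.8 CPM and 4.07 ± 1.34 CPM (SD, n = 8), a log2 fold change of -4.94 (SE 0.25, adjusted p = 4.68e-13, edgeR), or 30.7-fold lower. Between 39 and 137 reads lay behind each tdTom+ value. The counted model of Slc9a3 is 2490 bases, a multiple of 3, and is shorter at both ends than the GENCODE M21 gene (74121457 to 74169442), so reads over the untranslated ends may be missing from its level per length.

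Slc9a2 (ENSMUSG00000026062, chromosome 1 from 40680574 to 40769273, plus strand), the second apical exchanger of the colon, was at 208, 289 and 384 CPM in tdTom- cells and at 17.4, 21.1 and 25.4 CPM in tdTom+ cells. Here too the groups did not overlap. The means were 298 ± 54.8 CPM and 21.04 ± 3.13 CPM (SD, n = 8), with a log2 fold change of -3.82 (SE 0.12, adjusted p = 8.25e-16, edgeR), 14.1-fold lower. Slc9a2 fell less than Slc9a3 in every mouse. The log2 ratio of tdTom+ to tdTom- was 1.10 greater for Slc9a2 on average (SD 0.15 over 8 mice, from 0.83 to 1.26, two-sided exact sign-flip permutation test, p = 0.0078, adjusted p = 0.0078 over 6 such comparisons, which is the smallest p that 8 mice allow). Per kilobase of exon, Slc9a2 made up 46.8% ± 5.92 of the summed level of the pair in tdTom- cells and 65.5% ± 5.75 in tdTom+ cells (SD, n = 8), while the sum itself went from 93.5 ± 24.8 to 4.65 ± 0.915 CPM per kilobase.

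Slc9a3r1 (ENSMUSG00000020733, chromosome 11 from 115163341 to 115181181, plus strand) encodes NHERF1, the PDZ scaffold that ties NHE3 and other apical proteins to ezrin. Its level was 189, 264 and 307 CPM in tdTom- cells and 67.8, 77.0 and 87.6 CPM in tdTom+ cells. The 2 groups were separate, with a smaller decrease than that of Slc9a3. The log2 fold change was -1.74 (SE 0.084, adjusted p = 2.44e-13, edgeR), 3.34-fold lower, and the per-mouse ratio exceeded that of Slc9a3 by 3.17 (SD 0.23, 8 of 8 mice, exact sign-flip p = 0.0078, adjusted p = 0.0078). Among its other partners and relatives, 9 of 11 listed genes were tested, 5 were lower and 3 higher. Slc9a3r2, encoding the related scaffold NHERF2, was higher by 3.91 (38.9 ± 4.98 CPM in tdTom+ against 2.61 ± 0.571 CPM in tdTom- cells, SD, n = 8), opposite in direction to Slc9a3r1. Lower were Pdzd3 (log2 fold change -2.41), another scaffold of the NHERF family, Chp2 (-2.25) and Chp1 (-1.59), which bind Na+/H+ exchangers, Ezr (-0.64), the ezrin that links such scaffolds to actin, and Slc9a9 (-0.58). Slc9a7 (1.29) and Slc9a5 (0.82) were higher. Pdzk1 had too few reads to be tested.

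The SLC26 anion exchangers spread widely. Slc26a3 (ENSMUSG00000001225, chromosome 12 from 31390871 to 31473917, plus strand), the Cl-/HCO3- exchanger whose loss in people causes congenital chloride diarrhea, was at 302, 546 and 783 CPM in tdTom- cells. In tdTom+ cells it was at 11.5, 24.6 and 35.8 CPM, so that every tdTom+ library lay below every tdTom- library. The means were 559 ± 157 CPM and 25.5 ± 8.71 CPM (SD, n = 8), a log2 fold change of -4.45 (SE 0.23, adjusted p = 1.03e-12, edgeR), 21.9-fold lower. The per-mouse log2 ratio lay between -5.19 in mouse 1 and -4.13.

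Slc26a2 (ENSMUSG00000034320, chromosome 18 from 61192919 to 61211612, minus strand), a sulfate and chloride exchanger that supplies sulfate for the sulfation of glycans, was at 612, 855 and 996 CPM in tdTom- cells and 184, 232 and 271 CPM in tdTom+ cells. The libraries of the 2 populations were again separate. Its log2 fold change of -1.82 (SE 0.11, adjusted p = 9.26e-12, edgeR), 3.53-fold lower, was smaller than that of Slc26a3 by 2.67 in the per-mouse ratio (SD 0.51, 8 of 8 mice, exact sign-flip p = 0.0078, adjusted p = 0.0078).

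Slc26a6 (ENSMUSG00000023259, chromosome 9 from 108853283 to 108913049, plus strand), an apical exchanger of chloride, bicarbonate and oxalate, was scarce in both. It was at 1.69, 2.31 and 2.82 CPM in tdTom- cells and at 1.91, 3.14 and 3.78 CPM in tdTom+ cells, and between 36 and 87 reads lay behind each value. The groups overlapped, although the tdTom+ library was the higher one in 8 of 8 mice. The log2 fold change of 0.40 (SE 0.16, adjusted p = 0.0388, edgeR) did not pass the threshold, nor did it when the mouse was a term of the model (0.37, adjusted p = 0.0122, edgeR). The per-mouse ratio of Slc26a6 differed from that of Slc26a3 by 4.84 (SD 0.51) and from that of Slc26a2 by 2.17 (SD 0.38), each in 8 of 8 mice with an exact sign-flip p and adjusted p of 0.0078. The log2 ratio of Slc26a6 was positive and those of Slc26a3 and Slc26a2 negative in every mouse, so this p followed from the directions already given. Per kilobase of exon, Slc26a3 was 56.3% ± 4.12 of the summed level of the 3 genes in tdTom- cells and 17.1% ± 4.95 in tdTom+ cells. Slc26a2 went from 43.5% ± 4.07 to 80.5% ± 4.90 and Slc26a6 from 0.283% ± 0.0614 to 2.44% ± 0.739 (SD, n = 8). Of 8 other SLC26 genes, 2 could be tested. Slc26a4 (pendrin) was lower at a level near the floor, 0.195 ± 0.171 CPM in the tdTom+ and 1.10 ± 0.355 CPM in the tdTom- libraries, and Slc26a11 did not pass (log2 fold change -0.09, adjusted p = 0.491, edgeR).

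**Figure D2:**
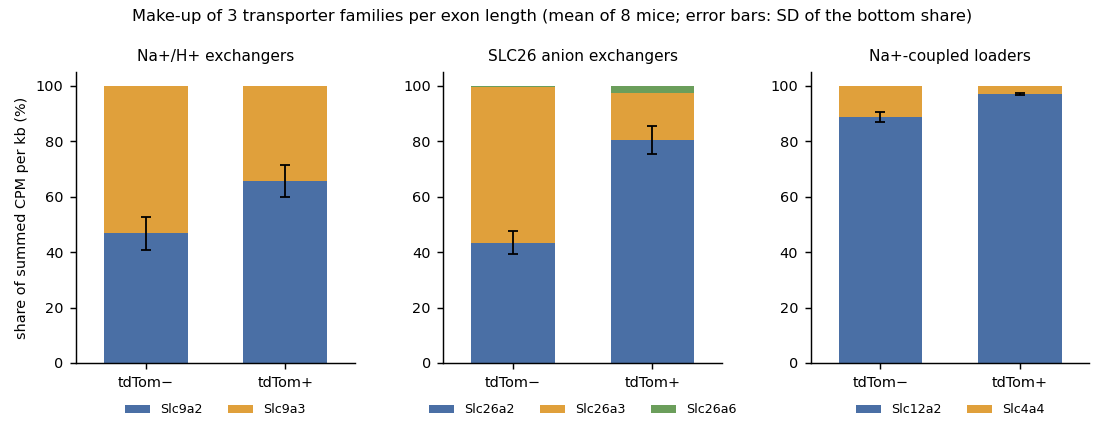
Share of each gene in the summed CPM per kilobase of exon of its family (vertical axis, percent from 0 to 100) in tdTom- and tdTom+ cells, as the mean of 8 mice with the SD of the gene at the bottom of each bar. Slc26a3 shrinks from 56.3% to 17.1% of its family and Slc4a4 from 11.2% to 2.87% of the pair with Slc12a2.

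The Na+-coupled transporters of the basolateral membrane moved in opposite directions. Slc12a2 (ENSMUSG00000024597, chromosome 18 from 57878678 to 57946821, plus strand), which encodes the Na+-K+-2Cl- cotransporter NKCC1 that loads secreting cells with chloride, was at 429, 532 and 787 CPM in tdTom- cells and at 854, 951 and 1089 CPM in tdTom+ cells. The lowest tdTom+ library was above the highest tdTom- library. The log2 fold change was 0.75 (SE 0.10, adjusted p = 1.87e-06, edgeR), 1.68-fold higher. Slc4a4 (ENSMUSG00000060961, chromosome 5 from 88886818 to 89239653, plus strand), the Na+-HCO3- cotransporter, was at 102, 111 and 138 CPM in tdTom- cells and at 36.3, 45.5 and 61.2 CPM in tdTom+ cells, again without overlap. Its log2 fold change was -1.31 (SE 0.089, adjusted p = 6.59e-11, edgeR), 2.47-fold lower. The per-mouse ratios of the 2 genes differed by 2.08 (SD 0.26, 8 of 8 mice, exact sign-flip p = 0.0078, adjusted p = 0.0078). With log2 ratios of opposite sign in every mouse, this p followed from the directions. Slc12a2 rose from 88.8% ± 1.84 to 97.1% ± 0.353 of their summed level per kilobase (SD, n = 8).

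The relatives of these 2 genes were also mixed. Of 9 other SLC4 genes 4 were tested. Slc4a7, encoding the electroneutral Na+-HCO3- cotransporter NBCn1, was higher by 1.95 (285 ± 35.3 CPM in tdTom+ against 73.6 ± 10.1 CPM in tdTom- cells, SD, n = 8). Per kilobase of exon, Slc4a7 was at 38.6 CPM and Slc4a4 at 4.32 CPM in tdTom+ cells, against 9.95 CPM and 10.7 CPM in tdTom- cells. Slc4a2, the anion exchanger AE2, was lower by a log2 fold change of -0.76, and so was Slc4a8 (-1.09). Of 13 genes of the SLC12 family and of the WNK and SPAK kinases that regulate it, 8 were tested, 5 were higher and 2 lower. The largest change was that of Slc12a8, an SLC12 relative, at 570.4 ± 53.6 CPM in tdTom+ against 21.5 ± 7.60 CPM in tdTom- cells (log2 fold change 4.73). Stk39, encoding SPAK, the kinase that activates NKCC1, was higher by 1.24, as were Wnk4 (0.69), Slc12a9 (0.64) and Wnk2 (0.61). Oxsr1, encoding the kinase most like SPAK, was lower (-0.44), as was the K+-Cl- cotransporter Slc12a7 (-0.61).

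The 2 remaining genes stand for uptake of sodium through a channel and of potassium by a pump. Scnn1a (ENSMUSG00000030340, chromosome 6 from 125320659 to 125344943, plus strand) was at 80.1, 136 and 159 CPM in tdTom- cells and at 168, 186 and 195 CPM in tdTom+ cells. The groups came close without overlapping. The log2 fold change of 0.51 (SE 0.10, adjusted p = 2.15e-04, edgeR), 1.43-fold higher, was the smallest of those that passed, and per mouse it lay between 0.29 and 1.24. Without mouse 4, whose tdTom- library was the lowest, it was 0.45. The median of the per-mouse log2 ratios was 0.37, and the lowest fitted value under the alternatives tried was 0.34.

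The other ENaC subunits were scarce in tdTom- cells and also higher in tdTom+ cells. Scnn1b, the beta subunit, was at 1.89, 2.72 and 5.72 CPM in tdTom- cells and at 20.4, 26.3 and 36.8 CPM in tdTom+ cells, with a log2 fold change of 3.17 (SE 0.20). Scnn1g, the gamma subunit, was at 0.508, 0.959 and 2.05 CPM in tdTom- cells and at 2.55, 4.04 and 5.21 CPM in tdTom+ cells (log2 fold change 1.99, SE 0.24). For both subunits the 2 groups were separate. Per kilobase of exon, the means in tdTom+ cells were 44.4 CPM for Scnn1a, 11.1 CPM for Scnn1b and 1.33 CPM for Scnn1g, against 31.1, 1.25 and 0.334 CPM in tdTom- cells, so the order of the subunits was the same in both populations. Of 9 listed ENaC subunits and regulators, all tested, 4 were higher and 3 lower. Hsd11b2, the enzyme that keeps glucocorticoid away from the mineralocorticoid receptor, was higher by 2.54 (973 ± 138 CPM against 168 ± 30.3 CPM, SD, n = 8), and Prss8, a channel-activating protease, by 0.96. Sgk1, the kinase that keeps ENaC at the surface, was lower (log2 fold change -2.06), as were Tsc22d3 (-0.52) and the protease St14 (-0.59). Nr3c2, the mineralocorticoid receptor, averaged 105 ± 9.41 CPM in the tdTom+ and 102 ± 10.8 CPM in the tdTom- libraries (log2 fold change 0.04, SE 0.070), and Nedd4l, the ligase that removes ENaC from the membrane, at 88.0 ± 4.39 CPM and 94.3 ± 9.34 CPM (-0.10, SE 0.059). Neither passed.

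Atp12a (ENSMUSG00000022229, chromosome 14 from 56365068 to 56388551, plus strand) was at 115, 237 and 336 CPM in tdTom- cells and at 37.1, 65.9 and 104 CPM in tdTom+ cells. The highest tdTom+ library came near the lowest tdTom- library without reaching it. The log2 fold change was -1.75 (SE 0.23, adjusted p = 1.34e-06, edgeR), 3.37-fold lower, and within mice the ratio lay between -2.41 and -1.26. Of 14 genes of the Na+,K+-ATPase, its FXYD regulators and the gastric pump, 6 were tested, 2 were higher and 3 lower. Among subunits of the Na+,K+-ATPase, which drives all of these routes, Atp1b3 was higher by 0.47. Atp1b1, a beta subunit, averaged 1105 ± 63.6 CPM in the tdTom+ and 1261 ± 74.9 CPM in the tdTom- libraries (log2 fold change -0.19, adjusted p = 0.0116, edgeR) and did not pass, but did so once the mouse was a term of the model (-0.19, adjusted p = 0.00266, edgeR). The FXYD genes split, with Fxyd3 higher by 2.62 and Fxyd4, a regulator known from the colon as CHIF, lower (-3.66, from 27.1 ± 10.9 to 2.14 ± 0.883 CPM). Fxyd6 (-1.02) and Fxyd5 (-3.47) were also lower, the latter with tdTom+ libraries at 0 to 0.282 CPM, near the floor, so its fold depends on the prior count.

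**Figure D3:**
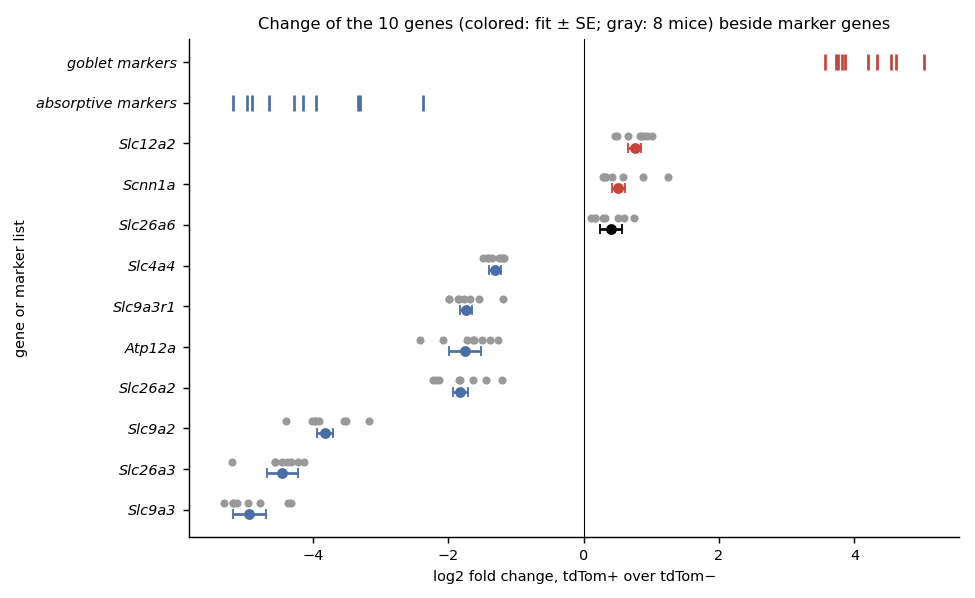
Log2 fold change of tdTom+ over tdTom- cells (horizontal axis) for the 10 genes, as the fitted value ± SE (red higher, blue lower, black not past the threshold) and as the ratio in each of 8 mice (gray), below the single genes of the absorptive and goblet marker lists. Slc9a3, Slc26a3 and Slc9a2, at -4.94 to -3.82, lie within the range of the absorptive markers (-5.18 to -2.37), and the other 7 genes lie between it and 0 or above 0.

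Chloride and bicarbonate can leave the cell through channels. Of 17 genes on a list of chloride channels and related proteins, 11 were tested, 5 of them lower and 3 higher. A place on this list does not mean that the product releases anions from the cell. Cftr, the cyclic AMP-gated anion channel of crypts, was lower (116 ± 11.5 CPM in the tdTom+ and 244 ± 28.5 CPM in the tdTom- libraries, SD, n = 8, log2 fold change -1.07). Clcn2, an inwardly rectifying chloride channel, was lower by a log2 fold change of -2.72, and Ano6 (-1.15), Clcn5 (-0.85) and Ano10 (-0.50) were lower too. Best2, encoding bestrophin 2, a bicarbonate-permeable channel, was at 2.33, 6.91 and 14.4 CPM in tdTom- cells and at 134, 172 and 212 CPM in tdTom+ cells. No tdTom- library came near the tdTom+ range, and the log2 fold change was 4.47 (SE 0.25). Clcn4 (0.41) and Clcn3 (0.31) were higher by less. Ano1, the calcium-gated chloride channel, was at 127 ± 12.3 CPM and 107 ± 39.3 CPM in tdTom+ and tdTom- cells and did not pass (adjusted p = 0.203, edgeR). Over all 7 lists, 49 of 81 genes were tested, 18 were higher, 21 were lower and 10 did not pass, with a median log2 fold change of -0.03. Over all genes tested 25.5% were higher and 25.5% lower, with a median of 0.0039. The counts of the single lists stand beside the same shares, and no list was tested as a set.

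**Figure D4:**
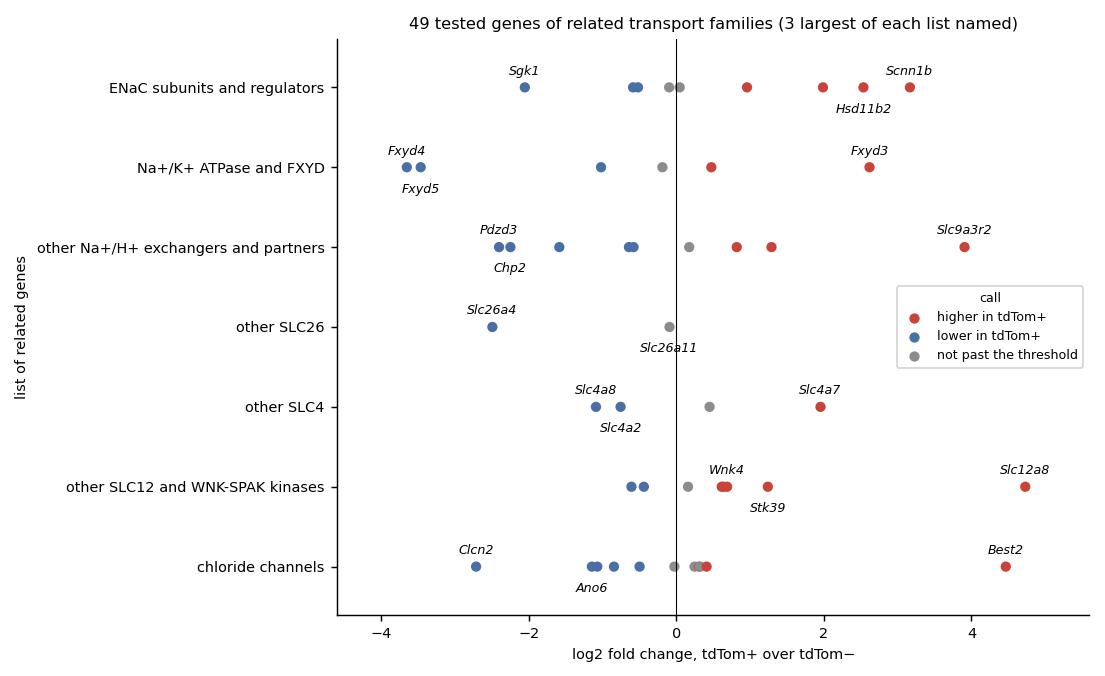
Log2 fold change of tdTom+ over tdTom- cells (horizontal axis) for the 49 tested genes of 7 lists of related transporters, channels and regulators (rows), with red points higher, blue points lower and gray points not past the threshold. Each list with more than 2 tested genes has points on both sides of 0, from Fxyd4 at -3.66 to Slc12a8 at 4.73.

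Ranked by mean CPM per kilobase of exon, the 10 genes changed places between the populations. In tdTom- cells the order was Slc9a3r1 (134 ± 17.9 CPM per kilobase, SD, n = 8), Slc26a3 (87.7 ± 24.6), Slc12a2 (86.6 ± 17.4), Slc26a2 (66.0 ± 11.5), Atp12a (57.5 ± 22.4), Slc9a3 (50.8 ± 17.6), Slc9a2 (42.7 ± 7.85) and Scnn1a (31.1 ± 6.22), and each of these overlapped its neighbor over the 8 libraries. Slc4a4 (10.7 ± 1.20) and Slc26a6 (0.422 ± 0.0764) lay apart below them. In tdTom+ cells Slc12a2 led (146 ± 11.8 CPM per kilobase) without overlap with the next, followed by Scnn1a (44.4 ± 2.50) and Slc9a3r1 (40.1 ± 3.70), whose libraries overlapped. Slc26a2 (18.7 ± 2.51) and Atp12a (17.1 ± 5.17) overlapped each other, as did Slc4a4 (4.32 ± 0.679), Slc26a3 (4.0 ± 1.37) and Slc9a2 (3.01 ± 0.449) with their neighbors. Slc9a3 (1.64 ± 0.539) and Slc26a6 (0.555 ± 0.136) were lowest and did not overlap. Levels per length rest on the exon lengths of the deposited files.

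Spread between mice differed by gene. The coefficient of variation was widest in tdTom- cells for Atp12a (38.9%), Slc9a3 (34.6%) and Slc26a3 (28.0%), and in tdTom+ cells for the same 3 genes (30.3%, 32.9% and 34.2%), whereas Scnn1a in tdTom+ cells varied by 5.63% and Slc12a2 by 8.07%. The tdTom- library of mouse 4, the largest by total reads, stood at the lowest level for 8 of the 10 genes and at the highest for Slc4a4 and Slc12a2. Without mouse 4 the counts stayed at 7 lower and 2 higher, and the log2 fold changes were -4.96 for Slc9a3, -4.45 for Slc26a3, -3.88 for Slc9a2 and 0.82 for Slc12a2.

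Whether the 2 populations of a mouse varied together was examined after the values had been seen, over 8 mice and with exact permutation of the pairings for 10 genes. The log2 CPM of Slc4a4 in tdTom- and tdTom+ cells correlated with Pearson's r = 0.856 (permutation p = 0.00528, adjusted p = 0.0482) and Spearman's rho = 0.786 (permutation p = 0.0279, adjusted p = 0.140), and r was 0.725 without mice 4 and 5, the farthest from the median in tdTom- cells. For Slc26a3 r was 0.816 (permutation p = 0.0138, adjusted p = 0.0482) and rho 0.857 (permutation p = 0.0107, adjusted p = 0.107), with r = 0.950 without mice 4 and 8. For Atp12a r was 0.794 (permutation p = 0.0145, adjusted p = 0.0482) and rho 0.714 (permutation p = 0.0576, adjusted p = 0.192), but r fell to 0.421 without mice 4 and 1, so this relation rests on those animals. None of the 3 passed 0.05 after adjustment by rho. The other 7 genes had an adjusted p of 0.0632 or more for r, and Slc26a6 went from r = 0.801 to -0.234 without mice 4 and 6. Mouse numbers fall into 3 series in the labels (mice 1 to 3, mouse 4 and mice 5 to 8), each too small for a correlation of its own. A shift between the series therefore cannot be told apart from variation shared by the 2 libraries of a mouse.

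**Figure D5:**
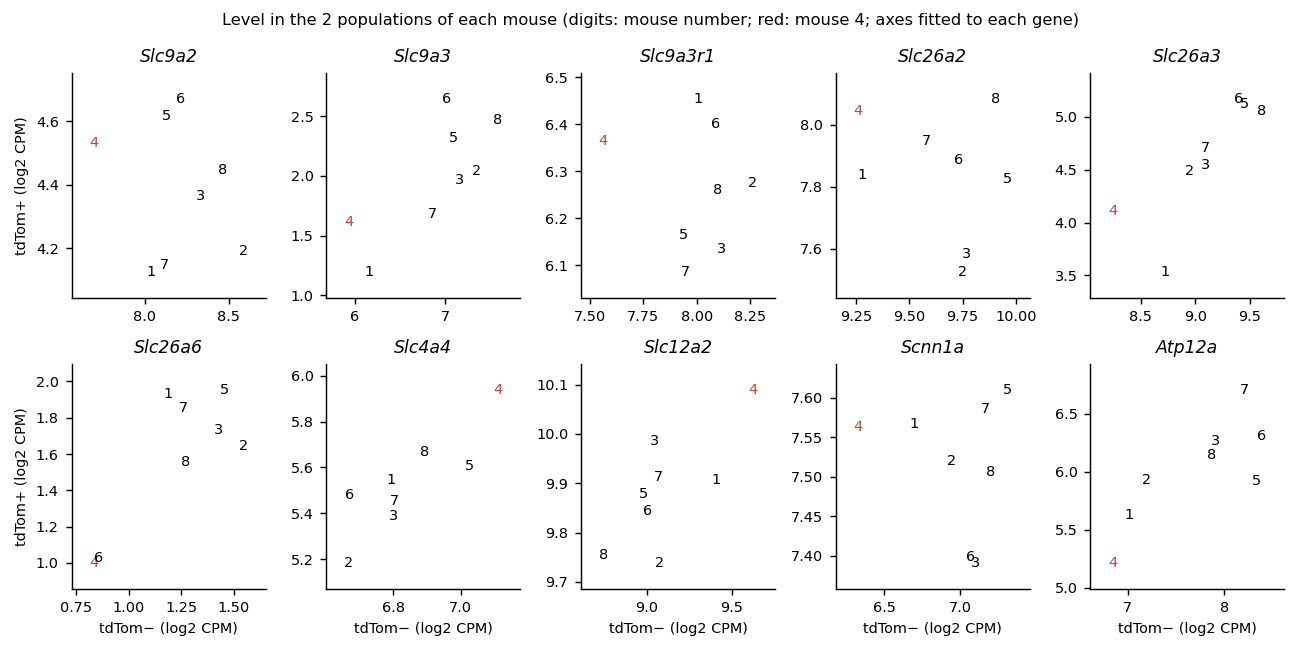
Log2 CPM of each gene in the tdTom- library (horizontal axis) and the tdTom+ library (vertical axis) of 8 mice, drawn as mouse numbers with mouse 4 in red and axes fitted to each gene. Points rise together for Slc26a3 (r = 0.816) and Slc4a4 (r = 0.856), and mouse 4 sits at one end of the horizontal axis in every panel.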

How the data were processed

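RNA from sorted EpCAM+ tdTom+ and tdTom- cells of 8 mice was made into stranded mRNA libraries. The submitters' processing notes name TopHat2 2.1.1, Subread 1.5.2 and DESeq2 1.14.1 with GRCm38.p3, while the file headers name featureCounts 1.5.0-p1. The authors deposited raw counts per gene over exons, from primary alignments on the reverse strand, without normalization, as 1 file per library. Reads shared by close paralogs could be lost in that counting. Symbols came from GENCODE M21 for 44585 of 45513 genes.

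From these counts, edgeR 4.0.16 in R 4.3.3 was run on all genes (filterByExpr, TMM, glmQLFit, glmQLFTest, no mouse term, Benjamini-Hochberg adjusted p under 0.01). Log2 CPM used a prior count of 2. Ratios of 2 genes were compared over mice by an exact sign-flip test, adjusted over 6 comparisons. Groups and pairing came from the labels: the same number is the same mouse. Deviations of a mouse's libraries correlated at 0.22 to 0.41 across genes. No libraries of a group agreed within sampling noise (chi-square per degree of freedom at least 11.7). Alternatives tried were a replicate block (mouse term), RLE, upper-quartile or no scaling, other filters, DESeq2 1.42.0, limma-voom (limma 3.58.1), an adjusted p of 0.05, each mouse left out, mice 1 to 3 or 5 to 8 only, and for the sign-flip comparisons a prior count of 0.5.

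The 10 genes, the 7 related lists and the marker lists were chosen with earlier results of these data known. All 10 genes are named in full. From the related lists, any gene past the threshold could be named, the 3 with the largest change of each list always, and a fixed set whatever their values. A few genes of these lists are not reported here and enter none of the lists' counts. Small intestinal samples are not analysed here. Figures were drawn with matplotlib 3.10.9.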

Additional observations from a re-analysis of the deposited data

Results flagged for a closer look

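In groups of 8, a value far from its neighbors was looked for in the 2 populations and the per-mouse ratios of the 10 genes, 30 groups in all, of which chance marks about 1 in 20. There were 2 such values. Slc9a3r1 in the tdTom- library of mouse 4 was at 7.56 log2 CPM, below the other 7 mice at 7.94 to 8.26, and without mouse 4 its log2 fold change was -1.79. The log2 ratio of Slc26a3 in mouse 1 was -5.19, below the other 7 mice at -4.56 to -4.13.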

How the results depend on the processing

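Each of the 10 genes kept its direction and its side of the threshold under all 18 alternatives to the fit. Among them Slc26a6 had a log2 fold change of 0.35 to 0.46 and an adjusted p of 0.0122 to 0.170 (edgeR, DESeq2 or limma). Apart from these alternatives, Slc26a6 passed when the threshold was an adjusted p of 0.05, where 3 genes were higher. The numbers 7 lower and 2 higher held otherwise, the replicate block (mouse as a term) included. Under that replicate block the related lists had 19 genes higher and 22 lower, Slc9a8 and Atp1b1 having passed, and over all genes tested genes called higher were 4494 and genes called lower 4574. With mice 1 to 3 only, genes called higher were 2546 and genes called lower 2559, from fewer samples. There Tsc22d3, Fxyd6, Slc9a5, Slc9a7, Slc9a9 and Clcn3 no longer passed, nor did Slc9a9 with mice 5 to 8 only, and 38 of the 49 related genes kept direction and side throughout. Signs turned in genes that passed neither way. Nr3c2 was at -0.00088 with total counts only and -0.033 with mice 1 to 3 only. Clcn7 lay between -0.046 and 0.0031 with 1 mouse left out, and Slc26a11 was at 0.088 with mice 5 to 8 only. The cause was not tested. Of 1231 values under alternatives 1210 kept direction and side. Slc26a6 rests on 36 to 87 reads per library, the lowest depth among the 10 genes in tdTom- cells.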
